A study of Mus musculus with 4 samples.

Results

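The expression of 36 mouse genes of glycolysis and the hypoxia response was followed in NMuMG cells, an epithelial line from mouse mammary gland, before and after 24 h of TGFβ. The genes were chosen by name, with earlier results of these data known. They were the transporters and enzymes that turn glucose into lactate and the enzymes that set the pace of that pathway. Further members were well-known targets of hypoxia-inducible factors (HIF). All 36 were found among the 21971 genes of the count table, 34 had enough counts to be tested and 32 had a mean of at least 1 CPM (CPM stands for a count scaled to the size of its library).

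The study asked how expression of a TERRA-like noncoding RNA, brought about through a TRF1 fusion protein, alters the expression changes of the epithelial-to-mesenchymal transition. The 4 groups were Vp16-TRF1ΔN cells given TGFβ for 24 h, Vp16-TRF1ΔN cells at 0 h, TRF1ΔN cells given TGFβ for 24 h, and TRF1ΔN cells at 0 h, with 1 library each. TRF1ΔN is a mutated human TRF1, a telomere-binding protein, and Vp16-TRF1ΔN is the same protein fused to the Vp16 transcription activation domain, so every group carried a mutated TRF1 and none was unmodified NMuMG. The cells grew in DMEM with serum and insulin, TGFβ was given at 5 ng/ml, and no low-oxygen treatment is named. The labels do not say which promoter drove the proteins or whether a line was 1 clone. They name no 24 h library without TGFβ, so time in culture and TGFβ cannot be told apart.

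Glycolysis splits glucose into pyruvate, and lactate dehydrogenase then reduces pyruvate to lactate, which leaves the cell through monocarboxylate transporters. HIF, a pair of an oxygen-regulated α subunit and the constant ARNT subunit, is destroyed in oxygen after hydroxylation by the prolyl hydroxylases of the Egln family. When it persists it binds short DNA elements with the core ACGTG or GCGTG and switches on most genes of the pathway, and among its targets are Egln genes themselves. Epithelial cells undergoing the transition are known for altered glucose use, in which HIF, TGFβ and growth factor signals meet on the same genes.

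That core was looked for in the 250 bases upstream of each gene's start in RefSeq (build GRCm38.p6), as ACGTG or GCGTG on either strand; ACGTG overlaps its own reverse complement in CACGTG, which then counts as 2 matches. The windows of 5 genes are shown because these were the genes that changed at least 2-fold in the same direction in both lines: Hk2 and Pfkfb4, which were higher after TGFβ, and Slc16a1, Ldha and Egln3, which were lower. Capitals mark a match on the strand shown or, as CACGT or CACGC, on the other strand.

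Hk2, chr6:82774455-82774704, minus strand: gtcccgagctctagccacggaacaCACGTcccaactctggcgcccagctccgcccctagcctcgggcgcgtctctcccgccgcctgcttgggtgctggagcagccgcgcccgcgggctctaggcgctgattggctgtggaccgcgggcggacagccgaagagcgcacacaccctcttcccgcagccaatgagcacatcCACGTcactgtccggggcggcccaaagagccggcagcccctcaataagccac

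Pfkfb4, chr9:108991652-108991901, plus strand: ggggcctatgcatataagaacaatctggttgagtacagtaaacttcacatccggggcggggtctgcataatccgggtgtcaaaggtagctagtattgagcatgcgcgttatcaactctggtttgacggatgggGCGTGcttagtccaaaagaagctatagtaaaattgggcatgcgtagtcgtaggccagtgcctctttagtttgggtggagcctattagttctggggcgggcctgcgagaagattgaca

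Slc16a1, chr3:104638414-104638663, plus strand: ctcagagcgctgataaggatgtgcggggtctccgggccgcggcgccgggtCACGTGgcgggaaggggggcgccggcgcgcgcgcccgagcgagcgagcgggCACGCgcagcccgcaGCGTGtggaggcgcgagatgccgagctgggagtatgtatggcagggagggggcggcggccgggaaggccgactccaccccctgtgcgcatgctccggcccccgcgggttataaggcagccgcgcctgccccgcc

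Ldha, the upstream of its listed starts, chr7:46845554-46845803, plus strand: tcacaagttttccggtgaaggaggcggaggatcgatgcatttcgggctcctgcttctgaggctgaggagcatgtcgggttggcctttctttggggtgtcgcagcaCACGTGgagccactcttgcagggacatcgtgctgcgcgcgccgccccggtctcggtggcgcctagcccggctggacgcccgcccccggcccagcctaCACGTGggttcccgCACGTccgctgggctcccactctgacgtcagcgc

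Egln3, chr12:54203875-54204124, minus strand: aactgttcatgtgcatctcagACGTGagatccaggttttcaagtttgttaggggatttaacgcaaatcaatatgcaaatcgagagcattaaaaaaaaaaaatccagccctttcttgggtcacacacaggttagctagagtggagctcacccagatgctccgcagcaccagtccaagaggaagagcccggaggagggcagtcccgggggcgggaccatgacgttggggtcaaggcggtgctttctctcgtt

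By GENCODE's gene models (release 21, build GRCm38) the windows of Hk2, Slc16a1 and Egln3 lie upstream of the gene. That of Pfkfb4 runs well into the gene (chr9:108991778-109032228), and its only match, upstream by RefSeq, lies inside the gene by GENCODE. The Ldha window lies within the longer gene span given there (chr7:46841475-46855627). The Ldha window held 5 matches, the Slc16a1 window 4, the Hk2 window 2, and the windows of Pfkfb4 and Egln3 1 each. RefSeq starts were found for 34 of the 36 genes, in 53 windows, and 75.5% of these windows held a match, against 38.6% of all 32851 windows outside chromosome 18. The members' windows were also richer in CpG, with a median of 13 CpG per window against 6 over all windows, and the share was not adjusted for that. By gene, a match was found in 30 of the 34 members with a window, 88.2%, against 41.5% of all 27025 genes, again unadjusted for CpG. It was found in 9 of 9 members that rose with TGFβ, 16 of 18 that fell, 3 of 5 not called and 2 of 2 not tested. Its presence thus did not separate the directions. A match is a string of letters and was not tested as a binding site.

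The libraries held 35423556 counts in Vp16-TRF1ΔN cells at 24 h, 41958849 in Vp16-TRF1ΔN cells untreated, 43379387 in TRF1ΔN cells at 24 h and 46001039 in TRF1ΔN cells untreated. The row of the table for the VP16 sequence had 27 and 15 counts in the Vp16-TRF1ΔN line at 24 h and 0 h, against 1 and 0 counts in the TRF1ΔN line. The row for TRF1ΔN had 159 and 123 counts in the Vp16-TRF1ΔN line and 7798 and 1863 counts in the TRF1ΔN line. This row was thus unequally abundant in the lines. It was also higher at 24 h than at 0 h, far more so in the TRF1ΔN line. Of the gene counts, 13.9% and 11.8% came from mt-Rnr2, a mitochondrial ribosomal RNA, at 24 h in the Vp16-TRF1ΔN and TRF1ΔN lines, against 10.1% and 9.03% at 0 h. Epithelial markers summed to 6253 and 6237 CPM at 24 h in these lines, against 6173 and 6456 CPM at 0 h, carried by Krt8 and Krt18, while Cdh1 and Krt19 fell with TGFβ and Epcam had at most 18 counts in a library. Averaged over both lines, 3 of the 6 tested epithelial markers fell, 2 rose and 1 was not called (adjusted p under 0.05, edgeR). Their median log2 change was -0.62, and Cldn3, also listed, was absent from the count table. Summed markers of immune cells lay between 3.48 and 5.35 CPM and those of endothelial cells between 0.189 and 1.38 CPM. The 3 measured fibroblast markers summed to 11.8 and 21.2 CPM at 24 h, against 1.88 and 1.32 CPM at 0 h, nearly all of it Col1a1 and Pdgfra, with Dcn at 0 counts in both 24 h libraries. Adipocyte markers summed to 15.1 to 22.7 CPM, nearly all of it Pparg, and the 1 measured erythroid marker lay between 0.0232 and 0.475 CPM. The part of these shifts in the results was not tested. In bulk RNA, fewer cells of a type and less RNA per cell cannot be told apart.

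**Figure D1:**
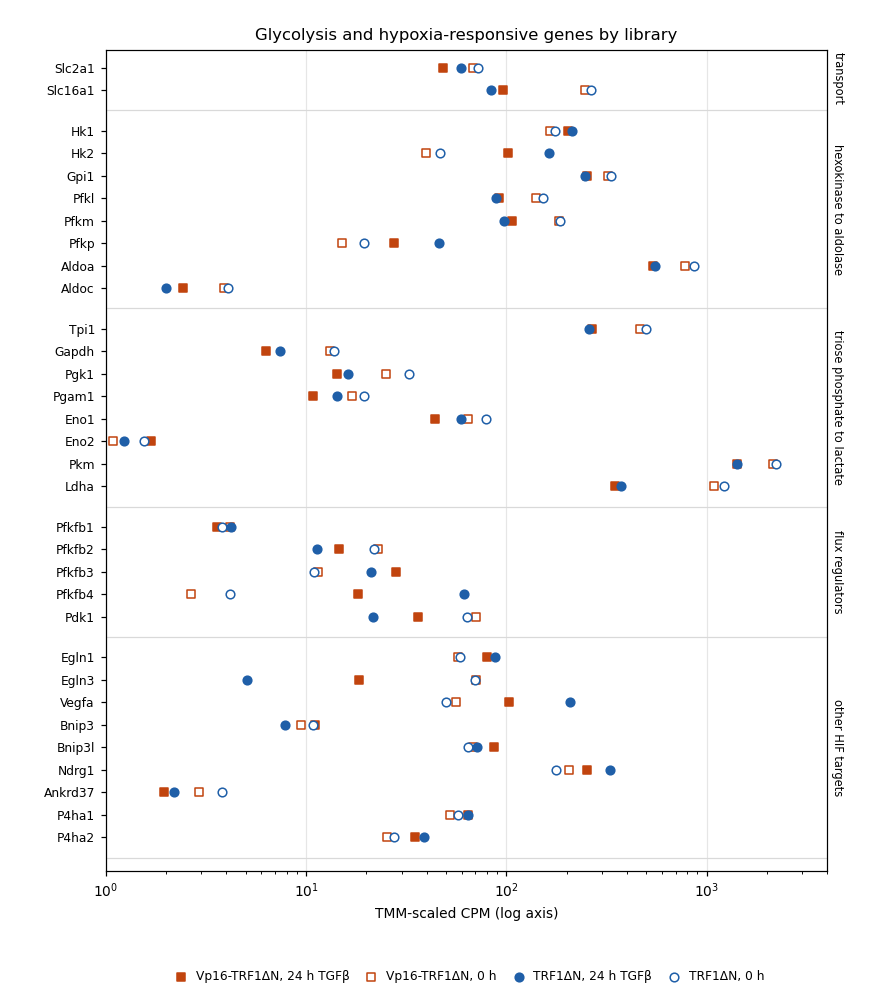
TMM-scaled CPM (log axis) of the 32 genes at or above 1 CPM on average, in rows grouped by role. Each point is 1 library: squares Vp16-TRF1ΔN, circles TRF1ΔN, filled 24 h TGFβ, open 0 h. Filled points lie left of open ones along most of the enzyme rows. They lie furthest right of them for Hk2, Pfkp, Pfkfb3, Pfkfb4 and Vegfa, and less far for Hk1, Egln1, Ndrg1, Bnip3l, P4ha1 and P4ha2.

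Most of the glycolytic pathway was lower after TGFβ, while a few isoforms at its control points and several HIF targets outside it were higher. Averaged over both lines, 10 of the 34 genes tested rose and 18 fell (adjusted p under 0.05, edgeR quasi-likelihood test, Benjamini-Hochberg over all genes), where 48.5% of all 14305 genes tested were called, 23.1% as higher and 25.4% as lower. Of the 18 transporters and enzymes among them 3 rose and 14 fell. The called share of the 34 was 82.4%, and all 28 called genes moved in the same direction in both lines. That agreement carries little weight, because disagreement between the lines is the spread of this fit and keeps a gene from being called. The median log2 change of the 34 was -0.44, against -0.01 over all genes. At least 2-fold on average were 9 of the called genes: Pfkfb4, Hk2, Vegfa, Pfkfb3 and Pfkp upward, and Egln3, Ldha, Slc16a1 and Pdk1 downward. The spread behind these p-values is the departure from additivity in an additive fit of line and TGFβ with 1 residual degree of freedom, and the labels do not say that libraries came from separate cultures, so the p-values speak only of the spread within this set of 4 libraries.

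**Figure D2:**
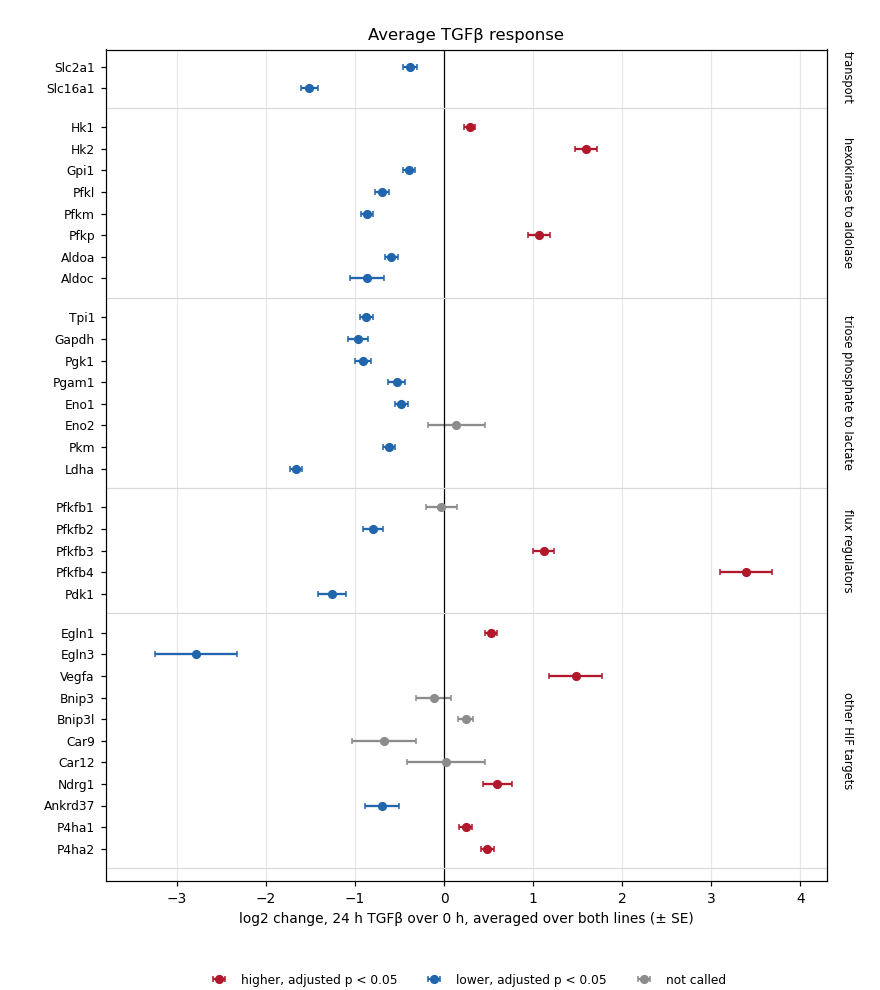
Average log2 change, 24 h TGFβ over 0 h, of the 34 genes tested, with ± SE from the additive fit over both lines; red is called higher, blue called lower, grey not called. The rows from triose phosphate to lactate hold no red point, and Pfkfb4 at 3.39 and Egln3 at -2.79 are the outermost points.

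The carriers at both ends of the pathway fell. Slc16a1, the monocarboxylate transporter MCT1 that moves lactate across the plasma membrane, had 96.8 CPM in Vp16-TRF1ΔN cells at 24 h against 248 CPM at 0 h, and 83.6 CPM in TRF1ΔN cells at 24 h against 265 CPM at 0 h. Both treated libraries were far below both untreated ones, and the average log2 change was -1.51 ± 0.10 (SE, adjusted p = 0.00139, edgeR). Slc2a1, the glucose transporter GLUT1, had 48.5 CPM at 24 h against 68.0 CPM at 0 h in Vp16-TRF1ΔN cells, and 59.3 CPM at 24 h against 72.3 CPM at 0 h in TRF1ΔN cells. The treated libraries were again the lower ones, by a smaller margin (-0.39 ± 0.08, adjusted p = 0.0194, edgeR), and the call was lost when TGFβ alone stood in the edgeR fit (adjusted p = 0.0597). Slc16a3, the lactate exporter MCT4 and a HIF target, had 2 counts in TRF1ΔN cells at 24 h and 0 counts in the other libraries, which allows up to 0.0875 CPM in Vp16-TRF1ΔN cells at 24 h, and was not tested.

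From hexokinase to aldolase 3 of 8 genes rose and 5 fell, where 23.1% of all 14305 genes tested rose and 25.4% fell. Hexokinase traps glucose in the cell by phosphorylation, and its isoform Hk2 had 102 CPM at 24 h against 39.6 CPM at 0 h in Vp16-TRF1ΔN cells, and 164 CPM against 46.6 CPM in TRF1ΔN cells. Both treated libraries stood above both untreated ones, and Hk2 rose by 1.59 ± 0.13 on the log2 scale (adjusted p = 0.00210, edgeR). The widely expressed isoform Hk1 had 202 CPM at 24 h against 165 CPM at 0 h in Vp16-TRF1ΔN cells and 212 CPM against 175 CPM in TRF1ΔN cells, a rise of 0.29 ± 0.06 (adjusted p = 0.0205, edgeR) that DESeq2's Wald test did not call (adjusted p = 0.0660).

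Per exon length, Hk2 made up 41.8% of the Hk1 and Hk2 signal in Vp16-TRF1ΔN cells at 24 h (exact 95% binomial interval 40.8 to 42.8%), against 25.5% at 0 h (24.5 to 26.6%). In TRF1ΔN cells Hk2 held 52.5% at 24 h (51.7 to 53.3%), against 27.6% at 0 h (26.7 to 28.6%). These intervals cover counting error only, and the summed level of both isoforms was 40.8 and 52.4 CPM per kilobase at 24 h in Vp16-TRF1ΔN and TRF1ΔN cells, against 26.0 and 28.3 at 0 h. Both the share of Hk2 and the summed level were thus higher in the treated libraries of both lines. The shares depend on the merged exon lengths used, 8532 bases for Hk1 and 5969 bases for Hk2. In counts Hk1 led in every library, also in TRF1ΔN cells at 24 h (8935 against 6915).

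Phosphofructokinase, the committed step, split by isoform. Pfkm and Pfkl, named for muscle and liver, fell by 0.86 ± 0.07 (adjusted p = 0.00216) and 0.70 ± 0.08 (adjusted p = 0.00367) on the log2 scale in edgeR's test. Pfkp, the platelet isoform, had 27.6 CPM at 24 h against 15.2 CPM at 0 h in Vp16-TRF1ΔN cells and 46.4 CPM against 19.4 CPM in TRF1ΔN cells, and rose by 1.07 ± 0.12 (adjusted p = 0.00413, edgeR). Pfkp was the least abundant of the 3 per exon length in every library, at 1.13 to 3.46 CPM per kilobase. The 3 isoforms summed to 47.7 and 45.9 CPM per kilobase at 24 h in Vp16-TRF1ΔN and TRF1ΔN cells, against 77.4 and 80.2 at 0 h.

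Gpi1, which interconverts glucose and fructose phosphates, fell by 0.39 ± 0.06 and the aldolase Aldoa by 0.59 ± 0.07, on the log2 scale. Aldoc, a minor aldolase here at 1.996 to 4.07 CPM, fell by 0.86 ± 0.19 (adjusted p = 0.0227, edgeR), though not in DESeq2's Wald test (adjusted p = 0.111).

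No gene of the lower pathway was called higher on average. Of the 8 genes tested from triose phosphate to lactate 7 fell and 1, Eno2, was not called, where 25.4% of all 14305 genes tested fell. The median log2 change of the 8 was -0.75. Ldha, the lactate dehydrogenase subunit that favours lactate formation, had 351 CPM at 24 h against 1083 CPM at 0 h in Vp16-TRF1ΔN cells, and 375 CPM against 1215 CPM in TRF1ΔN cells. The treated libraries were far below the untreated ones and close to each other, with an average log2 change of -1.66 ± 0.07 (adjusted p = 0.000858, edgeR). Ldhb, the other subunit, had 0, 1, 3 and 4 counts in Vp16-TRF1ΔN cells at 24 h and 0 h and in TRF1ΔN cells at 24 h and 0 h, and was not tested.

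Pkm, the pyruvate kinase gene and the most abundant member per exon length, had 1419.5 CPM at 24 h against 2149 CPM at 0 h in Vp16-TRF1ΔN cells, and 1424 CPM against 2215 CPM in TRF1ΔN cells. Its log2 change was -0.62 ± 0.07 (adjusted p = 0.00366, edgeR); counts per gene do not separate its splice forms M1 and M2. Tpi1, the triose phosphate isomerase, fell by 0.87 ± 0.08 and Pgk1, which makes the first ATP of the pathway, by 0.91 ± 0.09. Smaller decreases were those of the mutase gene Pgam1, which fell by 0.53 ± 0.10 (adjusted p = 0.0143), and of the enolase gene Eno1, which fell by 0.48 ± 0.07 (adjusted p = 0.00773). Both calls were lost with TGFβ alone in the edgeR fit (adjusted p = 0.0633 and 0.0911). Eno2, the neuronal enolase, lay at 1.09 to 1.69 CPM, with a log2 change of 0.13 ± 0.32 (adjusted p = 0.753).

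Gapdh, often used as a loading reference, had 6.33 CPM (217 counts) at 24 h against 13.1 CPM (566 counts) at 0 h in Vp16-TRF1ΔN cells, and 7.41 CPM (312 counts) against 13.7 CPM (655 counts) in TRF1ΔN cells. It was lower in both treated libraries (-0.97 ± 0.11, adjusted p = 0.00449, edgeR), but its level is uncertain. At 1.53 to 3.33 CPM per kilobase it lay far below the neighbouring enzymes Tpi1 (93.6 to 182) and Pkm (284 to 443). GENCODE annotates 77 pseudogene transcripts at 95% or more identity to the Gapdh transcript, which cover 86.6% of it, and how reads with several alignments were counted is not given in the sources used here. Such copies exist for 11 of the 36 genes, also for Pgk1, Eno1, Ldhb, Pkm, Ldha, Gpi1, Pgam1, Bnip3, Tpi1 and Bnip3l, and levels of these genes may be understated. None of the 10 tested genes with copies rose, 8 fell and 2 were not called, where 23.1% of all 14305 genes tested rose and 25.4% fell. Every gene that fell from triose phosphate to lactate has such copies, whereas Eno2, which was not called, has none. Of the 24 tested genes without copies 10 rose, 10 fell and 4 were not called, with a median of -0.0021, and of the transporters and enzymes without copies 3 rose and 6 fell of 10.

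The enzymes that set the pace of glycolysis held the strongest rise. The PFKFB enzymes make and break fructose 2,6-bisphosphate, the activator of phosphofructokinase. Pfkfb4 had 18.1 CPM (620 counts) at 24 h against 2.67 CPM (115 counts) at 0 h in Vp16-TRF1ΔN cells, and 61.5 CPM (2588 counts) against 4.16 CPM (198 counts) in TRF1ΔN cells. Both treated libraries were above both untreated ones, and the TRF1ΔN library at 24 h stood apart from the other treated one. Pfkfb4 rose by 3.39 ± 0.29 on average (adjusted p = 0.00236, edgeR).

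Pfkfb3, the isoform with the highest ratio of kinase to phosphatase activity, had 28.0 CPM at 24 h against 11.5 CPM at 0 h in Vp16-TRF1ΔN cells, and 21.1 CPM against 10.9 CPM in TRF1ΔN cells. It rose by 1.12 ± 0.12 (adjusted p = 0.00341, edgeR), here with the higher treated value in the Vp16-TRF1ΔN line. Pfkfb2, the heart isoform, fell by 0.80 ± 0.11 (adjusted p = 0.00684), and Pfkfb1, the liver isoform, was not called (-0.03 ± 0.18, adjusted p = 0.904). The 4 isoforms summed to 10.3 and 18.0 CPM per kilobase at 24 h in Vp16-TRF1ΔN and TRF1ΔN cells, against 6.26 and 6.28 at 0 h.

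Per exon length, Pfkfb4 held 50.02% of the Pfkfb3 and Pfkfb4 signal in Vp16-TRF1ΔN cells at 24 h (47.5 to 52.6%), against 26.4% at 0 h (22.5 to 30.6%). In TRF1ΔN cells it held 81.9% at 24 h (80.7 to 83.0%), against 37.1% at 0 h (33.2 to 41.0%). Per exon length, the treated lines thus differed: about equal amounts of both in Vp16-TRF1ΔN cells and mostly Pfkfb4 in TRF1ΔN cells. The equality depends on the merged exon lengths used, 7561 bases for Pfkfb3 and 4875 bases for Pfkfb4. In counts at 24 h, Pfkfb3 led in Vp16-TRF1ΔN cells (961 against 620) and Pfkfb4 in TRF1ΔN cells (2588 against 890).

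Pdk1, the kinase that inactivates pyruvate dehydrogenase and a textbook HIF target, had 36.3 CPM at 24 h against 70.7 CPM at 0 h in Vp16-TRF1ΔN cells, and 21.5 CPM against 63.5 CPM in TRF1ΔN cells. The treated libraries were the lower ones, with an average log2 change of -1.26 ± 0.16 (adjusted p = 0.00533, edgeR).

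**Figure D3:**
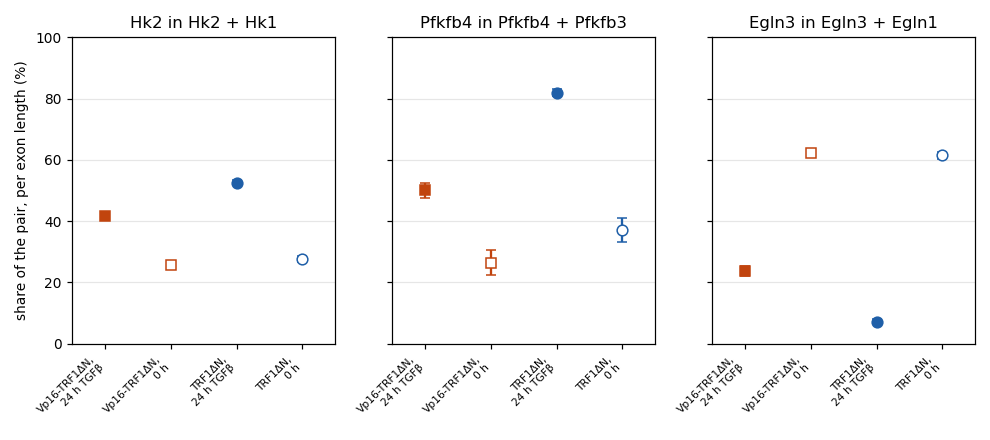
Share of the first gene in each pair (Hk2 with Hk1, Pfkfb4 with Pfkfb3, Egln3 with Egln1), in percent per exon length, in each of the 4 libraries, with exact 95% binomial intervals for counting error. Treated libraries (filled) have the higher share of Hk2 and Pfkfb4 and the lower share of Egln3, and the treated lines lie apart in all 3 pairs.

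The HIF targets outside glycolysis were split, with 5 of 11 genes higher, 2 lower and 4 not called, a called share of 63.6% against 48.5% of all genes tested. Egln3, the hydroxylase PHD3 that marks HIF for destruction and is itself induced by HIF, had 18.4 CPM (631 counts) at 24 h against 70.4 CPM (3035 counts) at 0 h in Vp16-TRF1ΔN cells, and 5.08 CPM (214 counts) against 69.6 CPM (3316 counts) in TRF1ΔN cells. The untreated libraries were nearly equal and the treated ones far lower and unlike each other. Egln3 had the largest decrease among the 34 genes tested (-2.79 ± 0.46, adjusted p = 0.0104, edgeR), and the log2 ratios of the lines, -1.93 in Vp16-TRF1ΔN and -3.76 in TRF1ΔN cells, lie further apart than this SE implies.

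Egln1, the main hydroxylase PHD2, had 79.7 CPM at 24 h against 57.4 CPM at 0 h in Vp16-TRF1ΔN cells and 88.2 CPM against 59.0 CPM in TRF1ΔN cells, and rose by 0.53 ± 0.07 (adjusted p = 0.00548, edgeR). Per exon length Egln3 held 23.8% of the Egln1 and Egln3 signal in Vp16-TRF1ΔN cells at 24 h (22.2 to 25.4%), against 62.4% at 0 h (61.1 to 63.6%). In TRF1ΔN cells it held 7.22% at 24 h (6.32 to 8.20%), against 61.4% at 0 h (60.2 to 62.6%). Egln3 was the more abundant of this pair in both untreated libraries and the less abundant in both treated ones.

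Vegfa, the endothelial growth factor, had 103 CPM at 24 h against 56.0 CPM at 0 h in Vp16-TRF1ΔN cells, and 209 CPM against 49.96 CPM in TRF1ΔN cells. It rose by 1.475 ± 0.30 on average (adjusted p = 0.0178, edgeR), with the TRF1ΔN library at 24 h far above the other treated one. Ndrg1, a stress-responsive gene, rose by 0.60 ± 0.16 (adjusted p = 0.0370) and P4ha2, a subunit of the prolyl hydroxylase that matures collagen, by 0.48 ± 0.07 (adjusted p = 0.00814). The sister subunit P4ha1 had a log2 change of 0.24 ± 0.07 and lay at the threshold (adjusted p = 0.0495). That call was lost with DESeq2's size factors (0.0525) and its Wald test (0.243), without mitochondrial genes (0.0659) and with TGFβ alone in the fit (0.0732).

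Ankrd37 fell by 0.69 ± 0.19 (adjusted p = 0.0395, edgeR) at 1.96 to 3.80 CPM, a call lost with DESeq2's Wald test (adjusted p = 0.260) and with TGFβ alone in the edgeR fit (adjusted p = 0.0666). The mitophagy receptor genes Bnip3 (-0.12 ± 0.20) and Bnip3l (0.24 ± 0.08) were not called. Car9 and Car12, the carbonic anhydrases of the cell surface, were near the limit of detection. Car9, among the strongest HIF targets in many cell types, had 11 counts at 24 h against 26 counts at 0 h in Vp16-TRF1ΔN cells, and 13 counts against 20 counts in TRF1ΔN cells, with a log2 change of -0.67 ± 0.36 (adjusted p = 0.190). Car12 had 9 and 19 counts in Vp16-TRF1ΔN cells and 28 and 22 counts in TRF1ΔN cells at 24 h and 0 h.

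Within a line the response has no test, as 1 library stands for each group. Genes count here as changed when the fold reached 2, the 95% counting interval left out equality and the level averaged 1 CPM or more. Of 32 genes, 3 counted as higher in the Vp16-TRF1ΔN line, Hk2, Pfkfb3 and Pfkfb4, and 4 as lower, Slc16a1, Gapdh, Ldha and Egln3, where 6.92% and 9.09% of 11777 genes were counted in these directions and 16.0% in either. In TRF1ΔN cells 4 counted as higher, Hk2, Pfkp, Pfkfb4 and Vegfa, and 6 as lower, Slc16a1, Aldoc, Pgk1, Ldha, Pdk1 and Egln3, where 8.40% and 10.9% of 11777 genes were counted in these directions and 19.3% in either. Counted in both lines were Hk2 and Pfkfb4 upward and Slc16a1, Ldha and Egln3 downward. A gene counted in 1 line and not in the other is not shown to differ between them.

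**Figure D4:**
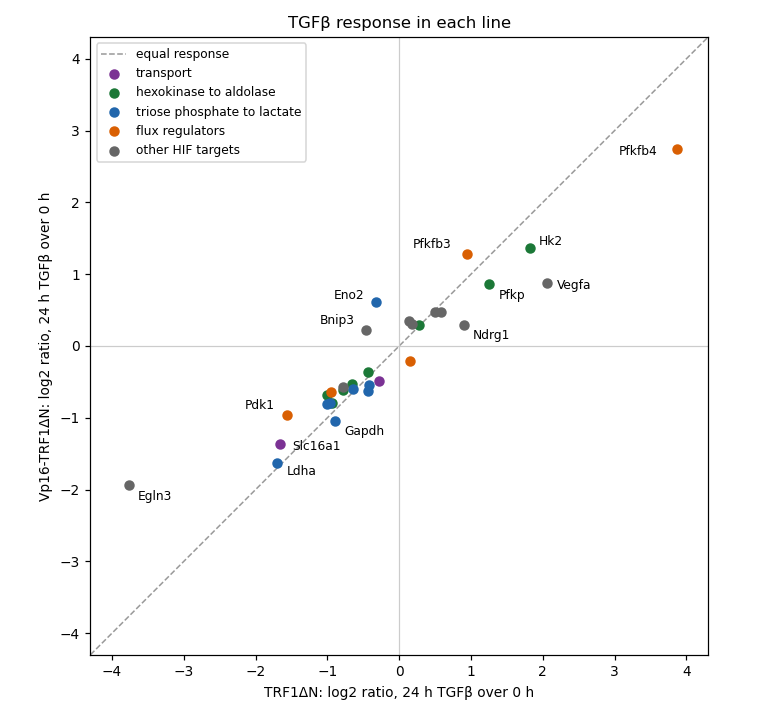
Log2 ratio of 24 h TGFβ over 0 h in the Vp16-TRF1ΔN line (vertical) against the TRF1ΔN line (horizontal) for the 32 genes at or above 1 CPM on average, coloured by role; the dashed line marks equal responses. Most genes lie near the dashed line, while Pfkfb4 (2.74 and 3.87), Vegfa (0.88 and 2.06) and Egln3 (-1.93 and -3.76) lie off it towards a smaller response in Vp16-TRF1ΔN cells.

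The responses of 3 genes differed between the lines by 2-fold or more, each being smaller in Vp16-TRF1ΔN cells, where 2.58% of 11777 genes were counted, 1.72% with a positive difference and 0.866% with a negative one. Pfkfb4 was 6.78-fold higher after TGFβ in Vp16-TRF1ΔN cells (95% counting interval 5.55 to 8.35) and 14.8-fold higher in TRF1ΔN cells (12.8 to 17.2). Vegfa was 1.84-fold higher in Vp16-TRF1ΔN cells (1.75 to 1.94) and 4.18-fold higher in TRF1ΔN cells (3.997 to 4.38). Egln3 was 3.82-fold lower in Vp16-TRF1ΔN cells (3.51 to 4.17) and 13.7-fold lower in TRF1ΔN cells (11.9 to 15.8). On the log2 scale the responses differed, as Vp16-TRF1ΔN minus TRF1ΔN, by -1.13 for Pfkfb4, -1.18 for Vegfa and 1.83 for Egln3. These intervals cover counting error only, and variation between cultures was not measured.

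A smaller response in the Vp16-TRF1ΔN line was seen for 7 of the 10 genes that rose and for 14 of the 18 that fell. Over all genes the same held for 68.3% of the 3305 that rose and 63.0% of the 3631 that fell, so the direction was common to the series and the members' counts lie near it. The median difference of the log2 responses, as Vp16-TRF1ΔN minus TRF1ΔN, was -0.25 for the 10 genes that rose, against -0.10 over all genes that rose. It was 0.16 for the 18 that fell, against 0.08 over all genes that fell. Pfkfb3 was among the exceptions, 2.43-fold higher in Vp16-TRF1ΔN cells (2.18 to 2.72) and 1.93-fold higher in TRF1ΔN cells (1.73 to 2.16).

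Set side by side at 24 h, Egln3 was counted as higher in Vp16-TRF1ΔN than in TRF1ΔN cells (3.62-fold, 3.10 to 4.25), and Pfkfb4 (3.40-fold, 3.11 to 3.72) and Vegfa (2.03-fold, 1.95 to 2.11) as lower, where 2.11% and 1.18% of 11777 genes were counted in these directions and 3.29% in either. This comparison shares the 24 h libraries with the difference of responses. At 0 h no member was counted in either direction, where 0.178% of 11777 genes were counted as higher, 0.416% as lower and 0.594% in either direction. At that time Egln3 had a ratio of Vp16-TRF1ΔN over TRF1ΔN cells of 1.01 (0.963 to 1.06) and Vegfa of 1.12 (1.06 to 1.19). Pfkfb4 was already lower in Vp16-TRF1ΔN cells at 0 h, 1.56-fold (1.23 to 1.98).

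Averaged over 0 h and 24 h, no member was called between the lines, nor was any other gene (0% of 14305, edgeR quasi-likelihood test; smallest adjusted p 0.0837). At an unadjusted p under 0.05 were 1779 genes, 12.4%, and 7 of the 34 members, of which Pdk1 was higher in Vp16-TRF1ΔN cells and Eno1, Pfkfb4, Pfkp, Hk2, Pgam1 and Pgk1 were lower. Among members averaging 1 CPM or more, the largest average differences were those of Pfkfb4 (-1.35 ± 0.28, adjusted p = 0.397), Egln3 (0.80 ± 0.45, adjusted p = 0.473) and Pfkp (-0.56 ± 0.12, adjusted p = 0.397), on the log2 scale as Vp16-TRF1ΔN over TRF1ΔN. DESeq2's Wald test called Pfkfb4 as lower (-1.25, adjusted p = 0.0113), as did edgeR without a filter on low counts (-1.35, adjusted p = 0.0237). In this additive fit a difference in response counts as spread, which widens the SE of Egln3, Vegfa and Pfkfb4.

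**Figure D5:**
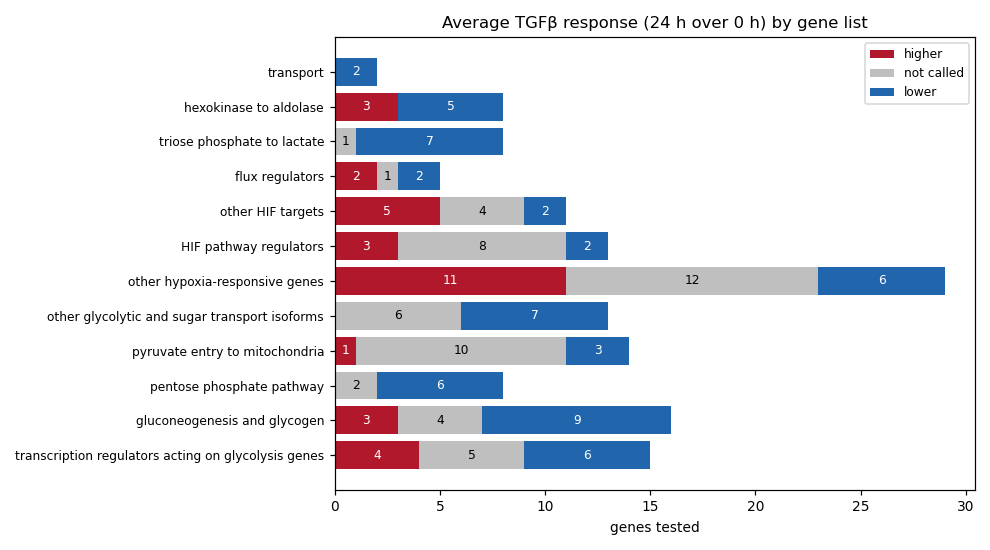
Numbers of genes called higher (red), not called (grey) and called lower (blue) in the average TGFβ response (24 h over 0 h) for the 5 roles among the 34 genes tested and for 7 lists of neighbouring pathways. The pentose phosphate list and the list of other isoforms hold no gene called higher.

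Neighbouring pathways were described from lists chosen by name, again with earlier results of these data known. Their counts stand beside the 48.5% of all 14305 genes that were called, 23.1% as higher and 25.4% as lower. Of 13 tested regulators of HIF 3 rose and 2 fell, a called share of 38.5%, with a median of 0.03. Hif1a, the α subunit, had 245 CPM at 24 h against 242 CPM at 0 h in Vp16-TRF1ΔN cells and 222 CPM against 252 CPM in TRF1ΔN cells, and was not called (-0.08 ± 0.08, adjusted p = 0.425). Its mRNA gives no measure of the protein, which is regulated by degradation. Epas1, which encodes the related HIF-2α, had 4.20 CPM at 24 h against 10.1 CPM at 0 h in Vp16-TRF1ΔN cells and 3.14 CPM against 10.8 CPM in TRF1ΔN cells, and fell (-1.52 ± 0.18, adjusted p = 0.00455). Arnt2, a partner subunit best known from neurons, rose by 3.13 ± 0.30 (adjusted p = 0.00291), to 6.13 and 9.22 CPM at 24 h in Vp16-TRF1ΔN and TRF1ΔN cells, against 0.998 and 0.735 CPM at 0 h. Cited2, which competes with HIF for its coactivator, rose by 0.53 and Egln2 fell by 0.32, whereas Arnt (0.22, adjusted p = 0.0626) and Vhl (-0.10, adjusted p = 0.305) were not called.

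Of 29 other hypoxia-responsive genes 11 rose and 6 fell, a called share of 58.6%, with a median of 0.05. The transcriptional repressor gene Bhlhe40 had 152 CPM at 24 h against 38.3 CPM at 0 h in Vp16-TRF1ΔN cells, and 302 CPM against 35.96 CPM in TRF1ΔN cells, and rose by 2.53 ± 0.28 (adjusted p = 0.00393). Lox, the collagen cross-linking lysyl oxidase, had 108 counts at 24 h against 1 count at 0 h in Vp16-TRF1ΔN cells, and 82 counts against 1 count in TRF1ΔN cells, which is 136-fold higher (23.9 to 5414) and 92.8-fold higher (16.2 to 3710). Stc1, a secreted glycoprotein gene, fell by 3.68 and Selenbp1, a selenium-binding protein gene, by 3.12.

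Of the other isoforms of glycolytic enzymes and sugar transporters none rose, 7 fell and 6 were not called, a called share of 53.8%, with a median of -0.22. The liver glucose transporter gene Slc2a2 fell by 2.55 ± 0.43 (adjusted p = 0.0108), and Pklr, the pyruvate kinase of liver and red cells, by 2.32 ± 0.25 (adjusted p = 0.00356). Pklr was named after its values were seen. Slc2a8 (0.03) and Adpgk (0.01) had the highest changes among genes of this list averaging 1 CPM or more and were not called.

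All 6 genes called in the pentose phosphate pathway, which branches off at glucose 6-phosphate and supplies NADPH and ribose, fell, and 2 of the 8 were not called, a called share of 75%, with a median of -0.56. Its first enzyme G6pdx had 52.3 CPM at 24 h against 146 CPM at 0 h in Vp16-TRF1ΔN cells and 52.7 CPM against 160.1 CPM in TRF1ΔN cells, and fell by 1.54 ± 0.07 (adjusted p = 0.000917). The transketolase gene Tkt fell by 0.83, while H6pd (-0.08) and Pgls (-0.10) were not called.

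In the list of gluconeogenesis and glycogen metabolism 9 of 16 genes fell and 3 rose, a called share of 75%, with a median of -0.46. Fbp2, a fructose bisphosphatase that opposes phosphofructokinase, had 2 counts at 24 h against 396 counts at 0 h in Vp16-TRF1ΔN cells, 157-fold lower (43.3 to 1304), and 0 counts against 471 counts in TRF1ΔN cells, at least 139-fold lower against a floor of 3 counts per library. The glycogen targeting subunit gene Ppp1r3c fell by 3.48, and the phosphoglucomutase family genes Pgm3 (0.75) and Pgm2 (0.68) rose.

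Of 14 genes that govern the entry of pyruvate into mitochondria 1 rose, 3 fell and 10 were not called, a called share of 28.6%, with a median of -0.12. The riser was Pdk4, a sister kinase of Pdk1, which had 4.49 CPM at 24 h against 0.858 CPM at 0 h in Vp16-TRF1ΔN cells and 4.44 CPM against 0.672 CPM in TRF1ΔN cells (2.55 ± 0.22, adjusted p = 0.00236). Pdk1 and Pdk4, which act on the same enzyme, thus moved in opposite directions. Pcx, the pyruvate carboxylase gene, fell by 1.82, and the carrier gene Mpc1 (-0.65, adjusted p = 0.0632) and the phosphatase regulator gene Pdpr (0.22, adjusted p = 0.0594) were not called.

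Of 15 transcription and signalling regulators of glycolysis genes 4 rose and 6 fell, a called share of 66.7%, with a median of -0.25. Mxd4, a Max partner that opposes Myc, rose by 1.35 and Arrdc4, a brake on glucose uptake, by 0.48, while Mycn fell by 2.405 and Ppargc1a, a coactivator of mitochondrial genes, by 1.53. Myc was not called (-0.05, adjusted p = 0.653). Txnip, which restrains glucose uptake, had 173 CPM at 24 h against 138 CPM at 0 h in Vp16-TRF1ΔN cells and 119 CPM against 105 CPM in TRF1ΔN cells, and rose by 0.25 ± 0.07 (adjusted p = 0.0437, edgeR).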

How the data were processed

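RNA depleted of ribosomal RNA was sequenced from 4 libraries, 1 per group. Per the submitters' processing notes FastQC, STAR, HTSeq and DESeq2 were used with build mm10; the sources used here do not give the annotation release, the strand setting or the treatment of multiply aligned reads. The authors deposited a table of raw counts per gene, which all results rest on, and a table of log2 normalized values, which the deposited counts return when divided by size factors, raised by 1 and logged. The table held 21971 genes, 21889 of them with a GENCODE release 21 symbol, and 4 construct rows, which stayed out of library sizes and tests.

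TMM factors were computed on all genes, and an additive model of line and TGFβ was fitted with edgeR 4.0.16 (R 4.3.3) to the 14305 genes passing filterByExpr, with 1 residual degree of freedom, a prior df of 3.39 and a biological coefficient of variation equal to 0.0931. Two-sided p was adjusted by Benjamini-Hochberg over all genes tested, and SE is |log2 change| over the root of F. Within-line and within-time log2 ratios used a prior count of 2 and have no test; folds carry exact conditional (Clopper-Pearson) 95% intervals, or Poisson-variance intervals for the difference of responses. Intervals, and floors of 3 counts, cover counting error only. CPM per kilobase used merged exons. Copies were found with BLAST+ 2.17.0 among GENCODE pseudogene transcripts (95% identity over at least 100 bases). Promoter windows came from RefSeq; the 50 bases after the start were left out. DESeq2 1.42.0, its size factors, no count filter, other prior counts and thresholds, and leaving out mitochondrial genes served as alternatives. The fitting code was run on simulated counts with few changed genes and no difference of response between the lines, unlike these data. That run does not show how well the p-values hold here.

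Members and lists were chosen with earlier results of these data known. Full statistics were to be given for the 5 largest average TGFβ changes each way, the 3 largest average line differences and differences of responses, and for Slc2a1, Hk1, Hk2, Gapdh, Pkm, Ldha, Ldhb, Pfkfb3, Pfkfb4, Pdk1, Vegfa, Egln1, Egln3 and Car9. From each further list the 2 highest and 2 lowest genes averaging 1 CPM or more were named, with Hif1a, Epas1, Arnt, Vhl, Myc and Txnip. The result of 1 gene that this rule picks is not reported here.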

Additional observations from a re-analysis of the deposited data

Results flagged for a closer look

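Bnip3, a mitophagy receptor gene and HIF target, moved in opposite directions in the lines. Its log2 ratio of 24 h TGFβ over 0 h was 0.23 in the Vp16-TRF1ΔN line (11.1 against 9.49 CPM) and -0.46 in the TRF1ΔN line (7.86 against 10.9 CPM). The counting interval of the fold excluded equality in each line (1.02 to 1.35 and 0.629 to 0.833), but each group had 1 library and the difference was not tested. Bnip3 also has 3 pseudogene transcripts of near-identical sequence, and 22.3% of its exon bases overlap a gene on the opposite strand, Gm45507. Such overlap was not particular to Bnip3. It was 26.4% on the opposite strand for Ankrd37, and on the same strand 17.4% for Pfkfb2, 15.3% for Pkm and 10.2% for Pfkm. Whether reads of copies or overlapping genes were counted with these members was not tested.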

How the results depend on the processing

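Over the alternatives run, 8 to 10 members were called as higher and 14 to 18 as lower with TGFβ, and no member's change reversed. Shares of all genes called under these settings are not given here. The 7 genes whose call was lost in some alternative are named with their adjusted p in the report. In the average difference between the lines, edgeR without a filter on low counts called 28 genes as higher and 81 as lower in Vp16-TRF1ΔN cells, DESeq2's Wald test 12 and 34, each with 1 member as lower (Pfkfb4), and leaving out mitochondrial genes gave 4 genes as lower. With a threshold of 1.5-fold, counted members came to 6 higher and 13 lower in the Vp16-TRF1ΔN response, 14 lower in the TRF1ΔN response, 2 higher and 4 lower between the lines at 24 h, 1 lower at 0 h, and 4 with a higher difference of responses. No share of all genes was taken at 1.5-fold, and the shares given above for 2-fold do not apply to these counts. Other counts of members stayed within 1.5 times. Under each setting the median log2 change of all genes moved by less than 0.1. No paired analysis was possible because the labels give no replicate numbers; the additive fit itself compares 24 h with 0 h within each line, and the fit with TGFβ alone does not. Each group holds 1 library, the additive fit has no residual degree of freedom on 3 libraries, and fits with TGFβ alone on 3 libraries were not run. Car9, Car12, Ldhb and Slc16a3 had at most 28 counts in a library, where counting error is large.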
